A study of Mus musculus with 13 samples.

Results

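Fibroblasts with Dlk1 transcripts are described here across postnatal stages of the mouse mammary gland. They were selected on measured values, as single cells with at least 2 Dlk1 UMIs and at least 1 UMI of Cpxm2, Inhba, Sorcs2 or Matn2, among barcodes that passed as fibroblasts. A barcode passed as a fibroblast with 500 to 7500 genes, at most 10% mitochondrial UMIs, at least 50 UMIs of Dcn, Lum and Col1a2 together per 10000 UMIs, and no UMI of Epcam, Pecam1, Rgs5, Sox10, Ptprc or Myog. The rule found 92 cells of 48890 fibroblasts and of 57967 barcodes in the 5 stage libraries, and they are called Dlk1 cells below. The remaining 48798 fibroblasts were the comparison, always within the same library.

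The study profiled stromal cells of the gland by droplet single-cell RNA sequencing, to follow fibroblast populations through development, under hormones and in tumours. The 5 stage libraries came from wild-type C57BL/6 females, in puberty (4 weeks of age in the labels), as adult virgins (9 weeks), at day 14.5 of pregnancy, at day 10 of lactation and at day 4 of involution. Each stage was 1 library, and the labels give 2 females per condition, so the spread between animals was not measured for any stage. The hormone libraries came from C57BL/6 females of 9 weeks with pellets of placebo (2 libraries) or of medroxyprogesterone acetate and estradiol (MPA+E, 2 libraries). In all 9 of these libraries the sorted cells lacked CD24 and the lineage markers of blood and endothelium. The raGFP-Wnt1 mice carry an MMTV-Wnt1 transgene, whose promoter drives Wnt1 in the mammary epithelium, and a Pdgfra-GFP allele in mice of mixed FVB and C57BL/6 descent, and GFP-positive cells were sorted from their hyperplastic glands (2 libraries) and tumours (2 libraries) of the same 2 mice, at 45 and 17 weeks. The choice of cells did not use the hormone libraries, which therefore served as separate samples for the same comparison.

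Dlk1, also called Pref-1, encodes a transmembrane protein with EGF-like repeats that is related to the Notch ligands but lacks the domain by which they activate the receptor. It is expressed from the paternal allele of an imprinted domain that also holds Meg3, Rian, Mirg and Rtl1, and it is known as a marker of preadipocytes that restrains their maturation. The gene lies on chromosome 12 (109452823 to 109463336, plus strand, GRCm38). Of the 4 other genes of the rule, Inhba encodes the subunit of activin A, Matn2 a matrilin of the extracellular matrix, Sorcs2 a sortilin-family receptor and Cpxm2 a member of the carboxypeptidase family without known peptidase activity.

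No Dlk1 UMI was found in the endothelial, epithelial and immune barcodes of the stage libraries, the only other cell types examined for it. At least 1 Dlk1 UMI was present in 454 of 48890 fibroblasts (0.929%, 95% Clopper-Pearson interval 0.845 to 1.02) and in 0 of 407 endothelial barcodes, which allows a share of up to 0.737% by 3 counts of the total and 0.902% by the Clopper-Pearson limit, within the fibroblast interval. It was present in 0 of 481 epithelial barcodes, which allows up to 0.624% and 0.764% by the same limits, and in 0 of 28 immune barcodes, a number too small to set a useful limit. Of the epithelial barcodes 437 came from pregnancy, where the fibroblast share was 0.391% and the epithelial upper limit 0.841%, so a difference was not detectable within that library either. Median depth was 1256.5 to 2574.5 UMIs in the endothelial and 3459.5 to 9489 UMIs in the epithelial barcodes, against 3990 to 7293 UMIs in fibroblasts, so that at the lower endothelial depth a difference in share was not detectable. A further 5 barcodes of puberty, 1 of the adult, 1 of lactation and 2 of involution met the limits for Dlk1 and a second gene but held a UMI of an excluded marker and were left out. In the hormone libraries 1 of 227 epithelial barcodes and 396 of 24452 fibroblasts (1.62%) held a Dlk1 UMI. Intervals and limits of this kind cover counting error only.

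Of the 5 markers fixed for fibroblasts, the rule itself required Dcn, Lum and Col1a2, so their level is no check of the label. Of the other 2, Pdgfra was 399.9 CPM on average in Dlk1 cells and 358 CPM in the remaining fibroblasts (-0.28 ± 0.22 on the log2 scale, adjusted p = 0.62 with edgeR), with 2 libraries higher and 2 lower, and Igfbp5 was lower (-1.99 ± 0.20, adjusted p = 2.3e-20). The mean CPM weights the libraries equally and the fit does not. With DESeq2 0 of these 2 genes had an unadjusted p under 0.05 in the stages. With the pellets both were lower in 4 of 4 libraries (Pdgfra -0.66 ± 0.14, adjusted p = 0.0057; Igfbp5 711 against 1388 CPM on average, adjusted p = 0.00052). Summed over all 5, the Dlk1 cells of the stages held 26457 to 35815 CPM per library (UMI counts scaled to the summed UMIs of the same cells) and the remaining fibroblasts 19033 to 27989. Pecam1, Myog, Epcam, Ptprc and Rgs5 were at 0 because the rule excluded any UMI of them. The other 3 endothelial, the other 4 myogenic and all 4 adipocyte markers, which the rule did not use, were also at 0 UMIs in the 92 cells. In the remaining fibroblasts the endothelial sums were 0.691 to 1.78 CPM and the myogenic sums 0.391 to 1.7 CPM. That is below a floor of 3 UMIs over the 4 fitted libraries (4.99 CPM), so these zeros are no check. The adipocyte sums of the remaining fibroblasts were 1.85 to 40.3 CPM. Krt8, Krt18, Itgb4, Lypd2 and Ntng1, at 0 below, were at 0.13 to 0.752 CPM on average in the remaining fibroblasts, under that floor too. Of the 4 other epithelial markers, Krt8 and Krt18 were at 0, and the summed level was 0 in 4 of the 5 libraries. The exception was pregnancy, where 1 of the 3 Dlk1 cells lay in a cluster led by Acta2, Tagln and Krt14, and the epithelial sum was 190.7 CPM and the smooth muscle sum 1449 CPM. Of the 6 perineurial markers Itgb4, Lypd2 and Ntng1 were at 0, and the list summed to 0 to 60.1 CPM against 7.1 to 19.1. Immune markers summed to 0 to about 20 CPM, with Cd52 at 0 besides Ptprc, against 2.52 to 3.87 CPM.

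The 92 cells came from all 5 libraries, 49 of them from puberty. Median depth was 6091 UMIs in the Dlk1 cells of puberty and 6663 in all fibroblasts of that library, 6188.5 and 5805 for adults, 4954 and 7105 for lactation, and 5889.5 and 7293 for involution. The 3 cells of pregnancy had a median of 9472 UMIs against 3990. Across the 78 pairs of the 13 libraries, 5 to 51 barcodes were shared, at most 0.539% of the smaller library. No pair of Dlk1 cells shared a barcode, and 6 of the 92 occurred as a barcode in another library. Scrublet scores placed 8 of the 92 cells among the likely doublets, 5 in puberty, 2 in involution and 1 in pregnancy, and these cells were kept except where their removal is named.

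The genes that defined the cells are given as a description, with no test. Summed Dlk1 was 605 CPM in the pubertal, 650.2 in the adult, 381 in the pregnant, 1082 in the lactating and 635 in the involuting gland in the Dlk1 cells, and 0.889 to 6.2 CPM in the remaining fibroblasts. The median Dlk1 cell of puberty held 3 Dlk1 UMIs and the highest 22. Matn2 was the most frequent second gene in puberty, with a UMI in 30 of 49 Dlk1 cells, in the adult (12 of 14) and in involution (9 of 16). In lactation it was seen in 5 of 10 cells, against 6 each for Cpxm2 and Sorcs2. In puberty Cpxm2 was seen in 16, Inhba in 15 and Sorcs2 in 17 of the 49 cells, and 21 cells held more than 1 of the 4 genes. Cells near the limits were common. Of the 92, 33 held exactly 2 Dlk1 UMIs and 34 exactly 1 UMI of the second genes in all. Just outside, 104 fibroblasts held 1 Dlk1 UMI together with a second gene, and 79 held at least 2 Dlk1 UMIs without one. In puberty a second gene was found in 55.7% of the fibroblasts with at least 2 Dlk1 UMIs and in 15.8% of those with none, and in involution in 69.6% and 24.6%. In pregnancy the corresponding shares were 30% and 18.6%.

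Dlk1 cells were most frequent in puberty. They made up 49 of 7121 fibroblasts in puberty (0.688%, interval 0.509 to 0.909), 14 of 11951 in the adult (0.117%, 0.0641 to 0.196), 3 of 11501 in pregnancy (0.0261%, 0.00538 to 0.0762), 10 of 8454 in lactation (0.118%, 0.0567 to 0.217) and 16 of 9863 in involution (0.162%, 0.0928 to 0.263). The share in puberty was 6.68 times that of the 4 other stages together (95% interval 4.35 to 10.3). The interval of puberty did not overlap that of any other stage, and pregnancy lay below the lower bound of involution. The adult, lactation and involution could not be ordered, as their intervals overlapped. With 1 library a stage there is no test, and the intervals do not hold differences between animals.

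**Figure D1:**
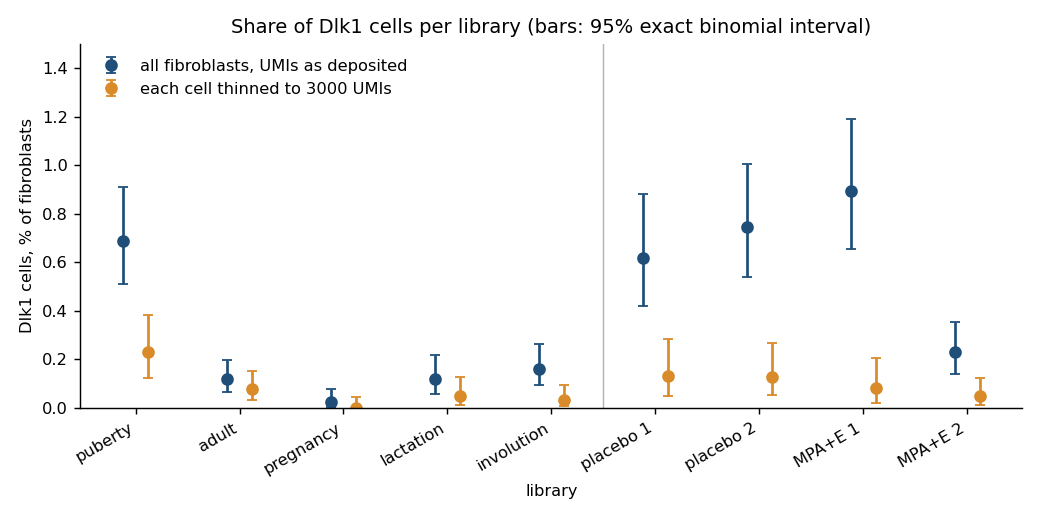
Dlk1 cells as a percentage of fibroblasts (y axis) in each stage and hormone library (x axis), with the deposited UMIs and with each cell thinned to 3000 UMIs, and bars for the 95% exact binomial interval. The puberty point (0.688%) lies above the 4 other stages (0.0261 to 0.162%), and thinning lowers the hormone libraries to 0.0485 to 0.13%.

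The share depended on depth in size but kept puberty highest. With each fibroblast thinned to 3000 UMIs and shallower cells left out, 14 of 6118 fibroblasts passed the rule in puberty (0.229%, 0.125 to 0.384), 8 of 10268 in the adult (0.0779%), 4 of 8086 in lactation (0.0495%), 3 of 9344 in involution (0.0321%) and 0 of 8501 in pregnancy, which allows up to 0.0434% (Clopper-Pearson; 0.0353% by 3 counts of the total). Thinning was a single random draw of UMIs from each cell, so these counts also carry the noise of that draw. Before thinning the same deeper cells gave 46 in puberty, 13 in the adult, 9 in lactation, 12 in involution and 2 in pregnancy. The shallower cells left out were 1003 pubertal, 1683 adult, 3000 pregnancy, 368 lactation and 519 involution cells. The thinned interval of puberty still overlapped that of the adult (0.0336 to 0.153) and, just, that of lactation (0.0135 to 0.127). The level of Dlk1 itself, which the rule used, is no separate support for that order. In all fibroblasts it was 10.5 CPM (9.64 to 11.5, exact Poisson) in puberty and 1.3 to 2.19 CPM at the other stages. The share of those Dlk1 UMIs that lay in the Dlk1 cells was 41.5% for puberty, 34.0% for adults, 16.1% for pregnancy, 49.1% for lactation and 51.8% for involution.

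Under placebo the rule took 30 of 4843 (0.619%) and 43 of 5760 (0.747%) fibroblasts, and under MPA+E 46 of 5152 (0.893%) and 20 of 8697 (0.23%). At the deposited depth the MPA+E values lay on both sides of the placebo values. These libraries were deeper, with median fibroblasts of 10216 to 16827 UMIs, and thinned to 3000 UMIs the shares were 0.13%, 0.129%, 0.0805% and 0.0485% in the same order. Both MPA+E values then lay below both placebo values, on 4 cells each against 6 and 7, with overlapping intervals (0.0478 to 0.283 and 0.052 to 0.266 under placebo, 0.0219 to 0.206 and 0.0132 to 0.124 under MPA+E). Thinned to 2000 UMIs the placebo shares were 0.0639% and 0.0906% and those with MPA+E 0.0793% and 0.0355%, so that MPA+E 1 lay above placebo 1. The order of the hormone groups thus changed between these settings. Thinning was a single random draw from each cell and left 3 to 7 passing cells a library, so depth and the draw cannot be told apart. The difference between the groups was not tested.

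The Dlk1 cells lay close to each other by genes the rule had not used. Each library was clustered alone with the 14 genes of the rule left out, and the 20 nearest neighbours of each cell were taken. Among the neighbours of a Dlk1 cell 15.2% on average were Dlk1 cells in puberty, 9.64% in the adult, 13% in lactation and 7.19% in involution, against library shares of 0.688%, 0.117%, 0.118% and 0.162%. In pregnancy none of the neighbours of the 3 cells was one. At least 1 such neighbour was found for 35 of 49 cells in puberty, 12 of 14 in the adult, 8 of 10 in lactation and 9 of 16 in involution. Across the placebo and MPA+E libraries the mean shares were 10.0% and 27.9% for the placebo libraries and 10.9% and 3% for those with MPA+E.

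They did not form 1 cluster, however, and no single cell type name is used for them. The clusters were sorted by their 10 leading genes into 4 kinds, a sorting set after the clusters had been seen. The largest kind was led by Angptl1, a secreted angiopoietin-like protein, together with Thbs4 or Hmcn2. Other leading genes of these clusters were Cilp, Bmp5, Tgfbi, Myoc and Smoc2, and Thbs4, Cilp, Bmp5 and Tgfbi are among the markers fixed for lobular fibroblasts. The second kind was led by Spp1 (osteopontin) with Apod or Rasgrp2, the third by Pappa2, a protease of IGF-binding proteins, with Prlr, the prolactin receptor, and the last by the proliferation genes Top2a and Mki67.

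Angptl1-led clusters held 51 of the 92 Dlk1 cells (55.4%) and 11.2% of the fibroblasts. They held 29 of 49 in puberty, 8 of 14 in the adult, 1 of 3 in pregnancy, 6 of 10 in lactation and 7 of 16 in involution. Spp1-led clusters, with 124 cells or 0.254% of the fibroblasts, held 10 Dlk1 cells, namely 2 in the adult, 3 in lactation and 5 in involution. No cluster of that kind was found in puberty. Pappa2-led clusters, with 151 cells, held 12 Dlk1 cells, 7 of them in puberty, where they were 7 of the 19 cells of the cluster, 3 in the adult and 2 in involution. The cycling cluster of puberty held 2, and 17 of the 92 lay elsewhere.

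**Figure D2:**
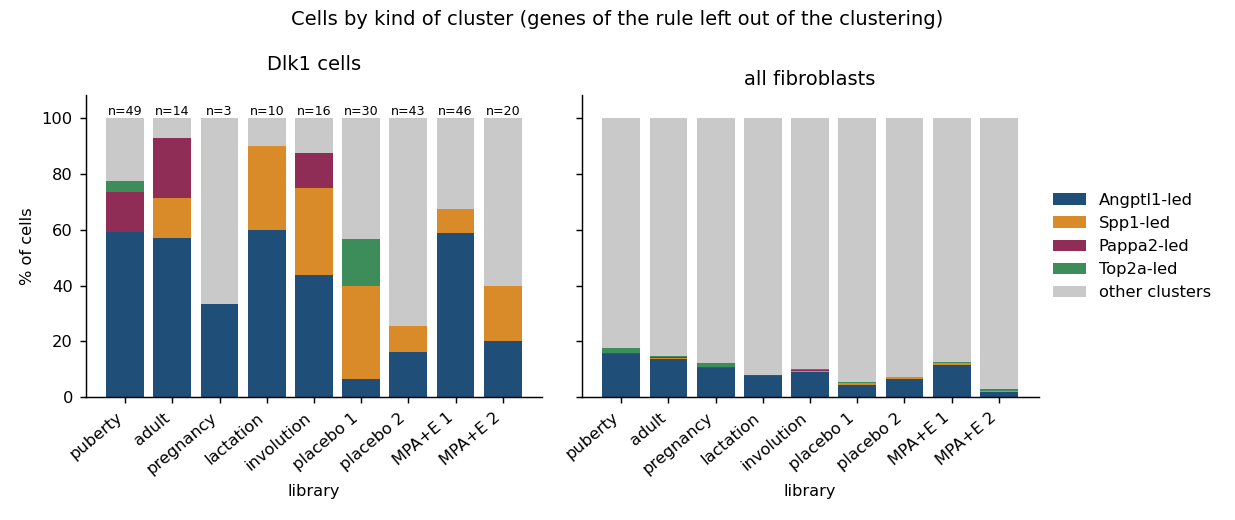
Percentage of Dlk1 cells (left) and of all fibroblasts (right) on the y axis that lay in clusters of each kind, per library on the x axis, with the number of Dlk1 cells above each bar. Angptl1-led clusters held 43.8 to 60% of the Dlk1 cells in puberty, adult, lactation and involution and 7.63 to 15.5% of all fibroblasts there.

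Inside the Angptl1-led clusters too, Dlk1 was most frequent in the puberty library, as a description with no test. A Dlk1 UMI was found in 13.3% of the cells of the pubertal cluster, 2.02% of the adult, 0.838% of the pregnant, 2.95% of the lactating and 2.82% of the involuting one, at median depths of the cluster of 6175.5, 4986, 3346, 4983 and 6738 UMIs. Dlk1 cells made up 2.63%, 0.49%, 0.0838%, 0.93% and 0.788% of it. Pappa2-led clusters carried a Dlk1 UMI in 12 of 19 cells of puberty (63.2%), in 50% of 36 cells in the adult, 7.89% of 38 in pregnancy, 3.85% of 26 in lactation and 9.38% of 32 in involution.

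What the Dlk1 cells expressed differed with the kind of cluster they lay in. In the Angptl1-led clusters of the 5 stages Apod, a lipocalin that binds small lipids, was 6167 CPM (95% exact Poisson interval 5897 to 6447) in Dlk1 cells and 669 CPM in the remaining cells of the clusters. The chemokine Cxcl14 was 2255 CPM (95% exact Poisson interval 2093 to 2427) against 284 CPM, and Fetub, a secreted protease inhibitor of the fetuin family, 117 CPM (95% exact Poisson interval 82.2 to 161) against 2.35 CPM. Of the 6 lobular markers, Thbs4 and Cilp, named after their values were seen, were lower, with Thbs4 at 372 CPM (95% exact Poisson interval 308 to 446) against 1179 CPM and Cilp at 669 against 1449 CPM. In the fit inside these clusters Thbs4, Cilp and Fndc1 were lower and Bmp5, Tgfbi and Eng (-0.08, adjusted p = 0.97) did not pass. In the Spp1-led clusters the Dlk1 cells were near the other cells in Apod (30171 against 26887 CPM) and Spp1 (463 against 438 CPM). Both genes were among those that sorted these clusters, so this closeness was partly set by the sorting. In the Pappa2-led clusters Prlr was 623 CPM (95% exact Poisson interval 484 to 789.7) in Dlk1 cells and 796 CPM in the others, and Pappa2 itself was 696 CPM (95% exact Poisson interval 549 to 871) against 1239.8 CPM. A Pappa2 UMI was present in 11 of the 92 Dlk1 cells, 5 in puberty, 3 in the adult and 3 in involution, against 0.376% to 0.846% of the remaining fibroblasts over the 5 stages. Only 3 of the 5 pubertal cells held at least 2 Pappa2 UMIs, while 7 pubertal Dlk1 cells lay in the Pappa2-led cluster. These levels are given with no test, since they describe kinds of cluster chosen after the clustering, and 10 or 12 cells stand behind the Spp1-led and Pappa2-led values. The Poisson intervals, here and elsewhere, cover counting error of the pooled UMIs only, and not the spread between cells or libraries.

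**Figure D3:**
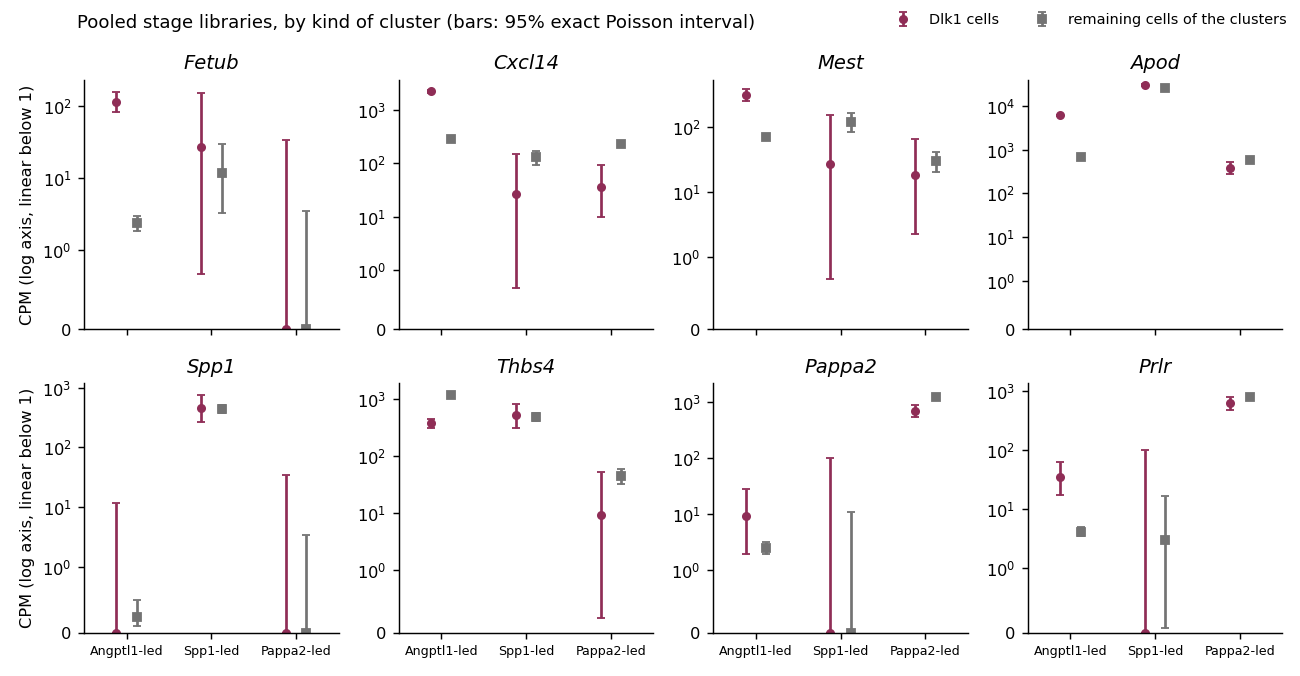
Level in CPM (log y axis, linear below 1) of 8 genes in Dlk1 cells and in the remaining cells of Angptl1-led, Spp1-led and Pappa2-led clusters (x axis), pooled over the 5 stage libraries, with 95% exact Poisson intervals. Fetub, Cxcl14, Mest and Apod are higher in the Dlk1 cells of the Angptl1-led clusters, while Spp1 and Apod in Spp1-led clusters nearly coincide between both sets of cells.

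Genes that differed between Dlk1 cells and the remaining fibroblasts were tested on UMI counts summed per library, with edgeR's quasi-likelihood test, the library as a block and Benjamini-Hochberg adjustment over all tested genes. Puberty, adult, lactation and involution entered, each with at least 10 Dlk1 cells. Of 13034 genes outside the rule, 226 were higher (1.73%) and 401 lower (3.08%) in Dlk1 cells at an adjusted p under 0.05, together 4.81%. The balance turned with DESeq2, by which 182 were higher and 100 lower, and without puberty edgeR called 352 genes, 30.7% of them higher. Since several kinds of cell make up the 92, a fold change is an average over them. The median log2 fold change of all tested genes was -0.23, and 0.01 with DESeq2, a shift of 0.24 against which small differences have to be read. In the hormone libraries 271 of 13741 genes were higher (1.97%) and 371 lower (2.7%), together 4.67%, and with DESeq2 254 were higher and 189 lower. Of the genes tested in both sets, 82 were higher in both, which is 36.6% of the stage genes and 31.8% of the hormone genes, and 118 were lower in both, which is 29.4% and 32%. Another 9 genes higher and 18 lower in the stages were called in the opposite direction in the hormone libraries.

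The secreted proteins Fetub and Saa1 led the higher genes. Fetub stood at 14.2 CPM in the pubertal, 177 in the adult, 38.1 in the pregnant, 80.2 in the lactating and 113 in the involuting gland in Dlk1 cells and at 0.186 to 0.773 CPM in the remaining fibroblasts, so no library overlapped. Fetub was a single UMI in pregnancy, and its choice as a named gene required it to be higher in each fitted library. Its log2 fold change was 7.15 ± 0.48 (standard error, 4 libraries, adjusted p = 2.3e-46). Among the 4 hormone libraries it was 15 and 15.4 CPM in the placebo libraries and 59.2 and 29.6 CPM in the MPA+E libraries against 0.131 to 0.779 CPM, and the log2 fold change was 5.99 ± 0.54 (adjusted p = 2.2e-07). Saa1, an acute-phase serum amyloid whose near-identical relatives make its own level uncertain, stood at 88.1 CPM in the pubertal, 177 in the adult, 38.1 in the pregnant, 20 in the lactating and 26.1 in the involuting gland, against 0.222 to 3.83 CPM. It differed by 5.39 ± 0.47 in the stages (adjusted p = 4.3e-27) and by 4.51 ± 0.57 in the hormone libraries (adjusted p = 2.2e-05). Its values in pregnancy and lactation were a single UMI each.

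Apod was the most abundant of the named genes. It stood at 2583 CPM in the pubertal, 12106 in the adult, 1068 in the pregnant, 18517 in the lactating and 6048 in the involuting gland in Dlk1 cells and at 444 to 1854 CPM in the others, a log2 fold change of 3.14 ± 0.19 (adjusted p = 9.2e-60). The adult and lactation were far above puberty and involution, and pregnancy was lowest. The median cell followed that order, with 10.0 Apod UMIs per 10000 in puberty, 105 in the adult, 139.9 in lactation and 59.6 in involution, and the range within puberty was 0 to 292. In the hormone libraries Apod was 5408 and 1953 CPM in the placebo libraries and 3513 and 3655 CPM in the MPA+E libraries and the log2 fold change 1.79 ± 0.18 (adjusted p = 1.9e-06).

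The leptin receptor gene Lepr stood at 19.9 CPM in the pubertal, 11.8 in the adult, 0 in the pregnant, 20 in the lactating and 69.6 in the involuting gland, against 0.105 to 1.11 CPM, with a log2 fold change of 4.91 ± 0.60 in the stages (adjusted p = 6.7e-14) and 2.85 ± 0.55 in the hormone libraries (adjusted p = 0.0021). Prlr was 117 CPM in the pubertal, 331 in the adult, 0 in the pregnant, 0 in the lactating and 183 in the involuting gland, against 3.7 to 21.5 CPM, and differed by 3.74 ± 0.30 (adjusted p = 7.8e-32) and by 2.85 ± 0.32 (adjusted p = 3.9e-06). With 49900 summed UMIs in the Dlk1 cells of lactation and 26218 in those of pregnancy, a level like that of the remaining fibroblasts was not detectable there. The adult and lactation values of Lepr were a single UMI each. Sorl1, a sorting receptor of the same family as Sorcs2, was 70.2 CPM on average in Dlk1 cells against 1.49 CPM, with log2 fold changes of 4.96 ± 0.50 (adjusted p = 3.9e-20) and 3.64 ± 0.64 (adjusted p = 0.00085).

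The other named higher genes were low in the remaining fibroblasts, at 0.595 to 9.01 CPM on average. They were Smim41 (5.17 ± 0.49), Cd300lg (4.30 ± 0.81), the ETS factor gene Etv4 (3.69 ± 0.66), the alkaline phosphatase gene Alpl (3.54 ± 0.46), the synaptic adhesion gene Nrxn2 (3.50 ± 0.69), the Rap exchange factor gene Rasgrp2 (3.49 ± 0.48), the cadherin gene Cdh19 (3.49 ± 0.69), the carboxylesterase gene Ces1d (3.44 ± 0.35), the C-type lectin gene Clec1a (3.32 ± 0.49) and the noncoding Foxd2os (3.30 ± 0.74), with the log2 fold change and its standard error in brackets. The choice required them to be higher in each of the 4 stage libraries that entered. At these levels a single UMI could meet that, as for Cd300lg in puberty, the adult and involution. Smim41, Nrxn2, Rasgrp2, Cdh19 and Foxd2os, like Apod, are on a list from a rare cluster of the study that also holds Spp1. Rasgrp2 and Smim41 were among the leading genes of Spp1-led clusters, where 10 of 124 cells were Dlk1 cells. They also led that of pregnancy, which held 0 Dlk1 cells, so these 2 genes were not particular to Dlk1 cells. With the pellets Smim41, Alpl, Nrxn2, Rasgrp2, Cdh19 and Clec1a passed the test as well, while Cd300lg (adjusted p = 0.24), Etv4 (0.85), Ces1d (0.12) and Foxd2os (0.086) did not. Single libraries decided some of these calls. Without lactation the log2 fold change of Cd300lg was 3.18 (adjusted p = 0.26), and without the adult that of Foxd2os was 2.29 (adjusted p = 0.3). Without puberty, which held most of the Dlk1 cells, Etv4 (3.98, adjusted p = 0.064) and Nrxn2 (3.92, adjusted p = 0.072) no longer passed, with no smaller fold changes.

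**Figure D4:**
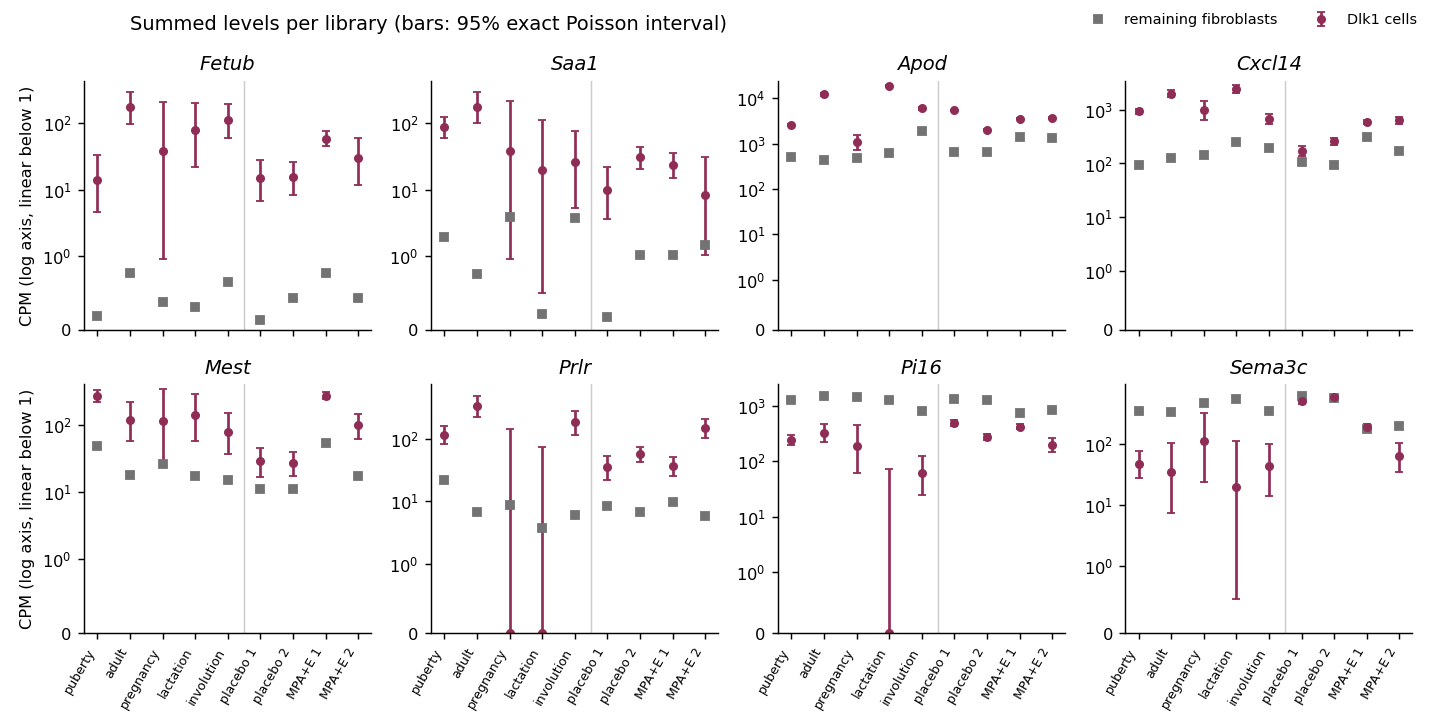
Level in CPM (log y axis, linear below 1) of 8 genes per library (x axis) in Dlk1 cells, with 95% exact Poisson intervals, and in the remaining fibroblasts. Fetub, Saa1, Apod, Cxcl14 and Mest are higher in the Dlk1 cells of all 9 libraries, Prlr in 7 of 9, and Sema3c is lower in all 5 stages but not in 2 of the 4 hormone libraries. Fetub and Saa1 in pregnancy and Saa1 in lactation rest on a single UMI each.

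Markers fixed for progenitor-type fibroblasts were lower in Dlk1 cells. All 7 progenitor markers (Pi16, Dpp4, Cd34, Ly6a, Sema3c, Cd55 and Anxa3) were lower in the stage libraries, against 3.08% of all genes, and 3 of the 7 in the hormone libraries, against 2.7%. Their summed level was 1102 to 3570 CPM in Dlk1 cells and 4169 to 7892 CPM in the remaining fibroblasts of the stages. Pi16, a secreted peptidase inhibitor that marks universal fibroblasts, stood at 247 CPM in the pubertal, 331 in the adult, 191 in the pregnant, 0 in the lactating and 60.9 in the involuting gland in Dlk1 cells and at 814 to 1501 CPM in the others. It differed by -3.17 ± 0.23 (adjusted p = 1.2e-39), and by -1.67 ± 0.18 in the hormone libraries (adjusted p = 2.7e-06). Sema3c, a secreted guidance protein, stood at 48.3 CPM in the pubertal, 35.5 in the adult, 114 in the pregnant, 20 in the lactating and 43.5 in the involuting gland, against 347 to 562 CPM, a log2 fold change of -3.44 ± 0.30 (adjusted p = 1.1e-27). Ly6a shares sequence with its relatives, so its own level is uncertain.

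Named lower genes outside the progenitor list were Cxcl13, a chemokine for B cells (-5.49 ± 0.71), the steroid-converting enzyme gene Akr1c18 (-4.50 ± 0.46), the decoy receptor gene Il1r2 (-4.46 ± 0.63), Aldh1a3, which makes retinoic acid (-4.40 ± 0.63), Sbsn (-3.26 ± 0.41) and Efhd1 (-3.20 ± 0.42), with standard errors. Cxcl13 was at 0 in the Dlk1 cells of puberty, pregnancy, lactation and involution and at 11.8 CPM in the adult, from 1 UMI, against 35.9 to 158 CPM. Its stage difference rests on that UMI and lay between -13.9 and -4.64 leaving out 1 library, so its size is uncertain. In the hormone libraries Cxcl13 differed by -3.13 ± 0.39 (adjusted p = 1.7e-05) and Il1r2 by -1.54 ± 0.21 (adjusted p = 5.9e-05). Sbsn did not pass there (-0.53 ± 0.22, adjusted p = 0.23), nor did Sema3c (-0.34 ± 0.19, adjusted p = 0.4). Of the preadipocyte markers Fabp4, Cd36, Pparg, Lpl and Mmp3, 4 were lower in the stages (against 3.08% of all genes) and 3 in the hormone libraries (against 2.7%), and none was higher. With DESeq2 1 of the 5 was lower in the stages and 2 in the hormone libraries. Inside the Angptl1-led clusters of the stages none of the 4 that were tested passed, with Fabp4 at -0.55, adjusted p = 0.88, Lpl at 0.32, adjusted p = 0.73, Mmp3 at -0.44, adjusted p = 0.69 and Pparg at 0.29, adjusted p = 0.97. There Fabp4 was higher in the hormone libraries (1.85, adjusted p = 0.0017).

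**Figure D5:**
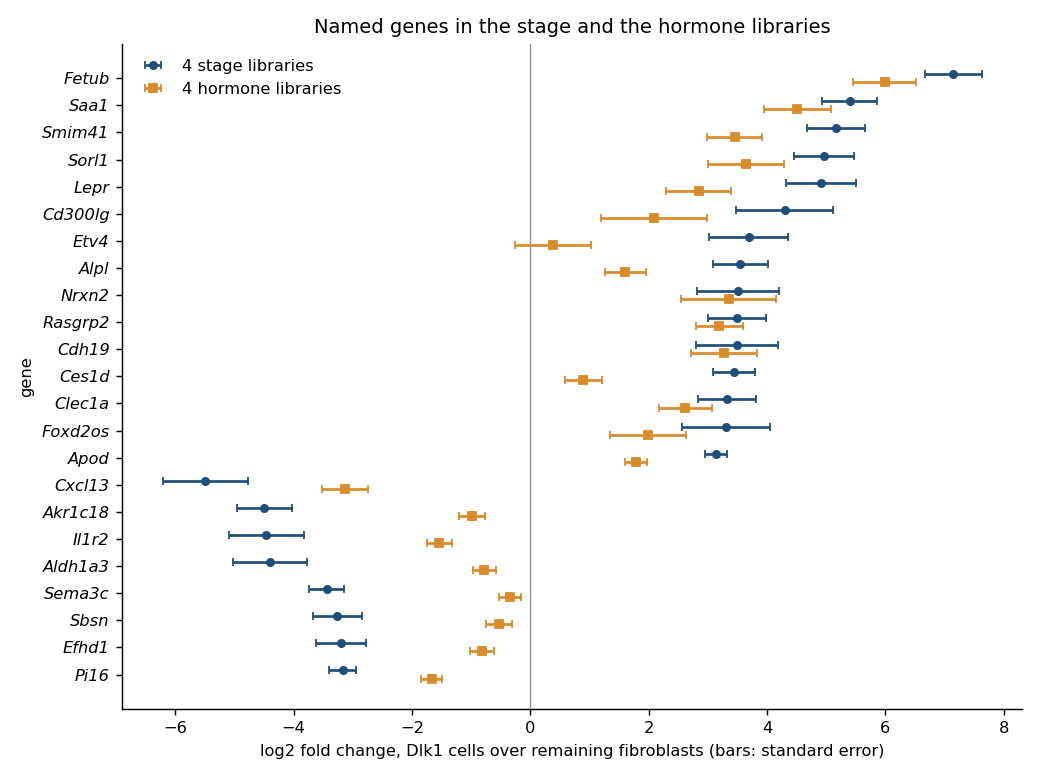
Log2 fold change of the 23 named genes (y axis) between Dlk1 cells and remaining fibroblasts (x axis) in the 4 stage libraries that entered the fit and in the 4 hormone libraries, with standard errors. The higher genes lie to the right in both sets, whereas the lower genes other than Cxcl13, Il1r2 and Pi16 lie within 1 unit of 0 in the hormone libraries.

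Compared inside the Angptl1-led clusters, Dlk1 cells still differed from the other cells there. With both sets of cells restricted to these clusters, a fit added after the clusters had been seen, 72 of 8770 genes were higher (0.821%) and 131 lower (1.49%) in the stage libraries. The Dlk1 cells entering numbered 29, 8, 6 and 7. Fetub differed by 5.99 (adjusted p = 2.4e-31), Saa1 by 4.62 (adjusted p = 3.4e-25), Smim41 by 4.76 (adjusted p = 6e-16), Sorl1 by 2.99 (adjusted p = 1.6e-08), Lepr by 3.87 (adjusted p = 2.6e-05) and Apod by 3.21 (adjusted p = 3.4e-34). The differences of Alpl (2.60, adjusted p = 3e-06) and Ces1d (2.13, adjusted p = 1.4e-08) kept their direction. Of the named genes tested there, 5 no longer passed, namely Nrxn2 (1.72, adjusted p = 0.27), Sbsn (-0.78, adjusted p = 0.83), Efhd1 (-1.35, adjusted p = 0.23), Aldh1a3 (-1.72, adjusted p = 0.75) and Il1r2 (adjusted p = 0.13). Il1r2 had 0 UMIs in the Dlk1 cells of these clusters (95% exact Poisson interval up to 11.6 CPM) against 15.3 CPM in the others, so its lost call does not show that the difference went away. Cd300lg, Etv4, Foxd2os, Cxcl13 and Akr1c18 had too few reads there to be tested. Of the other genes called over all stage fibroblasts, Gfra1, Igf1, Cpe, Bambi, Tgfbr2, Hes1, Rbpj and Plagl1 did not pass inside the clusters either, with the lowest adjusted p at 0.097 (Hes1). Thbs4, chosen for display after its values were seen, differed by -2.04 (adjusted p = 1.8e-10) inside the clusters, while over all fibroblasts it was 0.09 ± 0.23 (adjusted p = 0.91). Pi16 (-2.53, adjusted p = 1.1e-12) and Sema3c (-2.42, adjusted p = 1.2e-07) were lower inside as well. Across the placebo and MPA+E libraries, where placebo 1 entered with 2 Dlk1 cells and MPA+E 2 with 4, 60 of 7939 genes were higher (0.756%) and 49 lower (0.617%). There Alpl (0.64, adjusted p = 0.87), Il1r2 (-0.95, adjusted p = 0.85) and Efhd1 (-1.24, adjusted p = 0.7), which had passed over all hormone fibroblasts, no longer passed, while Fetub, Saa1, Sorl1, Clec1a, Apod and Pi16 did.

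Imprinted genes were described from a list of 23, of which 21 were tested. In the stages Mest and Plagl1 were higher, 2 of 21 against 1.73% of all genes, and none lower, and the median log2 fold change of the list was 0.10, against -0.23 over all genes. Mest, a paternally expressed gene of the hydrolase fold family, stood at 264 CPM in the pubertal, 118 in the adult, 114 in the pregnant, 140.3 in the lactating and 78.3 in the involuting gland in Dlk1 cells and at 14.9 to 47.3 CPM in the others, so all 5 libraries were higher. The difference was 2.33 ± 0.28 (adjusted p = 2.8e-14) and 1.92 ± 0.21 in the hormone libraries (adjusted p = 2.9e-06). The zinc-finger factor gene Plagl1 differed by 0.89 ± 0.25 (adjusted p = 0.012) and 1.28 ± 0.17 (adjusted p = 3.4e-05). Of the other transcripts of the imprinted domain of Dlk1, none passed in the stages, where Meg3 was -0.02 ± 0.17 (adjusted p = 0.98) and Mirg 0.64 ± 0.36 (adjusted p = 0.46). Rian was -0.26 ± 0.21 (adjusted p = 0.66), at 281 to 651 CPM in Dlk1 cells against 299 to 546 CPM, and Rtl1, at 0 to 20.04 CPM against 0.746 to 1.56 CPM, was 1.29 ± 1.24 (adjusted p = 0.71). In the hormone libraries Rian (0.42 ± 0.13, adjusted p = 0.075; 430.1 to 585 against 320 to 366 CPM) and Rtl1 (0.19 ± 0.89, adjusted p = 0.96) did not pass either. Meg3 and Mirg passed there, Meg3 at 0.85 ± 0.13 (adjusted p = 0.00019) and Mirg at 1.39 ± 0.19 (adjusted p = 3.4e-05), and 4 genes of the list were higher and 1 lower. The difference between both sets was tested for Meg3 and was 0.84 ± 0.20 (adjusted p = 0.0037). H19, a maternally expressed noncoding RNA, was 62.5 CPM in the pubertal, 35.5 in the adult, 1068 in the pregnant, 0 in the lactating and 17.4 in the involuting gland, where pregnancy rests on 7 and 21 UMIs in 2 of its 3 cells.

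Of 21 Notch pathway genes, 12 were tested in the stages, with 0 higher and 2 lower, against 1.73% and 3.08% of all genes, and a median of -0.91 against -0.23. Hes1, a target gene of Notch signalling, was 45.4 CPM on average in Dlk1 cells and 96.7 CPM in the others (-1.23 ± 0.32, adjusted p = 0.0036). In the 3 pregnancy Dlk1 cells, outside the fit, it was higher, at 343 CPM, while the lowest remaining fibroblasts of the stages were at 87.2 CPM. Rbpj, the transcription factor through which the receptors act, differed by -0.96 ± 0.27 (adjusted p = 0.014). Both calls were lost with DESeq2, by which 0 of the 12 genes passed and 2 had an unadjusted p under 0.05. Among the 4 hormone libraries 0 of 14 tested genes passed with edgeR or DESeq2, and 5 and 3 had an unadjusted p under 0.05.

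Of 24 activin and TGF-β genes, all tested, 2 were higher and 3 lower in the stages, against 1.73% and 3.08% of all genes (median -0.50), and 2 and 2 in the hormone libraries, against 1.97% and 2.7% (median -0.17 against -0.09 over all genes). Bambi, a pseudoreceptor that dampens TGF-β signalling, was higher in the stages (1.69 ± 0.39, adjusted p = 0.00066) and -0.05 ± 0.24 in the hormone libraries (adjusted p = 0.95). The receptor gene Tgfbr2 was lower in the stages (-1.34 ± 0.22, adjusted p = 3e-07) and Tgfbi, a secreted TGF-β-induced matrix protein, was higher in both sets (1.28 ± 0.23 and 0.95 ± 0.17, adjusted p = 2.2e-06 and 0.0011), but not inside the Angptl1-led clusters (-0.55, adjusted p = 0.39 and -0.31, adjusted p = 1). Fst, which binds activin, was not among the called genes (-0.64 ± 0.25, adjusted p = 0.15).

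Of 23 genes of adipogenesis, 18 were tested, with 1 higher and 6 lower in the stages, against 1.73% and 3.08% of all genes (median -0.48), and 1 higher and 5 lower in the hormone libraries, against 1.97% and 2.7% (median -0.51). With DESeq2 1 was higher in each set, and 1 and 4 were lower. The higher gene was Sox9 in both, a transcription factor that is a known target of Dlk1 in preadipocytes, at 90.9 CPM in the pubertal, 189 in the adult, 76.3 in the pregnant, 220.4 in the lactating and 157 in the involuting gland in Dlk1 cells against 12.9 to 22 CPM (2.70 ± 0.28, adjusted p = 1.5e-19). Fabp4, the fatty-acid binding protein of maturing adipocytes, was 14.2 CPM in the pubertal, 0 in the adult, 153 in the pregnant, 0 in the lactating and 209 in the involuting gland in Dlk1 cells against 115 to 296 CPM, and lower in the fit (-2.48 ± 0.31, adjusted p = 4.9e-13). In involution it was not lower, at 209 against 179 CPM, nor in MPA+E 2, at 262 against 82 CPM. Cd36, the fatty-acid translocase gene, had 0 UMIs in the Dlk1 cells of the 4 stage libraries, and against a floor of 3 UMIs over them it was at least 1.87-fold lower. By the same floor Wnt10b, a Wnt ligand that holds back adipogenesis, was at least 3.83-fold lower. Pparg, the master regulator of the adipocyte fate, was too low to call (8.61 against 16.7 CPM, adjusted p = 0.36).

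The matrix genes differed in direction between the sets of libraries. The clusters in which the Dlk1 cells lay differed too. Angptl1-led clusters held 55.4% of the Dlk1 cells in the stages and 28.8% in the hormone libraries, and clusters of no named kind 18.5% and 51.8%. Pappa2-led clusters held 13% in the stages, while no such cluster formed in the hormone libraries, where cells of that kind would fall into the others. Placebo 1 had a cluster with Pappa2 but not Prlr among its leading genes, which held 4 Dlk1 cells and was not counted as Pappa2-led. Of the 72 hormone Dlk1 cells in clusters of no named kind, 28 lay in 1 cluster of placebo 2. The part of this make-up in the difference was not tested. Of the 37 matrix genes, all tested, 4 were higher and 15 lower in the stages (median -0.57 against -0.23). The shares of all genes were 1.73% and 3.08%. In the hormone libraries 13 were higher and 2 lower (median 0.30 against -0.09), against 1.97% and 2.7% of all genes. With DESeq2 the counts were 3 and 8 in the stages and 12 and 1 in the hormone libraries. In the stages periostin (Postn) was 574 against 1878 CPM (-2.16 ± 0.20, adjusted p = 2.6e-23), elastin (Eln) differed by -1.85 ± 0.22 (adjusted p = 2.2e-14) and fibrillin (Fbn1) by -1.61 ± 0.19 (adjusted p = 3.5e-14). The 3 pregnancy Dlk1 cells, outside the fit, went the other way, with Postn at 7399.5 CPM against at most 2413 CPM in the remaining fibroblasts of any stage. Tenascin C (Tnc) was higher in both sets (1.65 ± 0.50 and 1.73 ± 0.20, adjusted p = 0.027 and 8.3e-06). The difference of the effect between hormone and stage libraries passed the test for 18 of the 37 genes, against 2.34% of all 13945 genes. In Dlk1 cells of the hormone libraries Col3a1 was 17581 and 25958 CPM in the placebo libraries and 20839 and 21167 CPM in the MPA+E libraries, against 9815 to 16388 CPM in the remaining fibroblasts.

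The same shares of all genes (1.73% and 3.08% in the stages, 1.97% and 2.7% in the hormone libraries) apply to the smaller lists. Of 14 matrilin, sortilin and carboxypeptidase genes, 8 were tested, and Sorl1 and Cpe, carboxypeptidase E, were higher and none lower in the stages (median 0.17). In the hormone libraries Sorl1 passed alone (median 0.02). Of 23 neurotrophic and guidance genes, 19 were tested, with 3 higher and 2 lower (median -0.04), and 4 and 4 in the hormone libraries (median 0.20). Gfra1, the co-receptor for GDNF, was higher in both (2.52 ± 0.39 and 2.09 ± 0.29, adjusted p = 2e-08 and 5.9e-05). Of 9 steroid, prolactin and IGF genes, 2 were higher and 2 lower in each set (median -0.01 and -0.45). Igf1 was higher (1.40 ± 0.20, adjusted p = 1.5e-10) and Igfbp5, which binds IGFs, lower (-1.99 ± 0.20, adjusted p = 2.3e-20), as was the progesterone receptor gene Pgr in the stages (-2.20 ± 0.60, adjusted p = 0.0085). With DESeq2 0 genes of this list were lower in the stages.

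Of 25 Wnt, BMP and hedgehog genes, 22 were tested, with 3 higher and 3 lower in the stages (median 0.14; with DESeq2 0 lower) and 3 higher and 0 lower in the hormone libraries (median -0.19). The lobular marker Bmp5 stood at 19.9 CPM in the pubertal, 59.1 in the adult, 0 in the pregnant, 381 in the lactating and 69.6 in the involuting gland in Dlk1 cells against 5.66 to 9.53 CPM, and differed by 3.12 ± 0.40 (adjusted p = 1.2e-12) and 2.26 ± 0.35 (adjusted p = 0.00022). It is a leading gene of Angptl1-led clusters, and inside them it did not pass (0.91, adjusted p = 0.16 in the stages and 0.54, adjusted p = 0.7 in the hormone libraries). The hedgehog antagonist gene Hhip was higher in the stages (2.63 ± 0.48, adjusted p = 3.3e-06) and -0.85 ± 0.60 in the hormone libraries (adjusted p = 0.54). Of 28 transcription factors, 26 were tested, with 5 higher and 5 lower in the stages, against 1.73% and 3.08% of all genes (median 0.53), and 0 higher and 3 lower in the hormone libraries (median -0.13). Besides Etv4, the forkhead gene Foxs1 was higher (2.11 ± 0.67, adjusted p = 0.035), and Hoxc10 was lower (-2.56 ± 0.69, adjusted p = 0.0064). Not every fitted library was lower, as Hoxc10 reached 60.1 CPM in Dlk1 cells against at most 35.3 CPM in the remaining fibroblasts.

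The lists taken from rare clusters that the study defined on the stage samples were mostly higher, which is not independent evidence in those samples. The study also reported Dlk1 expression in these minor clusters. Choosing cells on Dlk1 can therefore favour cells of these clusters in any library, so the hormone counts are not independent evidence either. Of 25 genes of the list with Spp1, Rasgrp2 and Apod, 19 of 21 tested were higher in the stages (median 2.86) and 16 of 24 in the hormone libraries (median 2.12), with 0 lower in either. Of 29 genes of the list with Pappa2, Lgr5 and Prlr, 16 of 21 tested were higher in the stages (median 2.65) and 10 of 22 in the hormone libraries (median 1.47), again with 0 lower. Pappa2 was 48.3 CPM in the pubertal, 331 in the adult, 0 in the pregnant, 0 in the lactating and 365 in the involuting gland, and so was seen in the 3 stages in which Dlk1 cells lay in Pappa2-led clusters. Its difference was 4.90 ± 0.34 (adjusted p = 1.8e-42), and with the cells that hold a Pappa2 UMI removed from the Dlk1 cells 212 genes were higher and 347 lower in the stage libraries as a whole. In these counts Ctla2a shares sequence with a close relative, and its level is uncertain.

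Among other fixed markers, those of endoneurial fibroblasts, which include Apod and Sox9, were higher for 2 of 4 tested genes in the stages and 3 of 6 in the hormone libraries, with Wif1 at 0. Their sum was 1297 to 18898 CPM in Dlk1 cells and 689 to 2023 CPM in the others, and most of it was Apod. Of the 6 lobular markers Bmp5 and Tgfbi were higher and 1 lower in the stages. All 4 Pappa2 fibroblast markers were higher in both sets. Of the 4 cycling markers 0 passed with edgeR or DESeq2 in either set (with edgeR 1 had an unadjusted p under 0.05 in the stages and 3 in the hormone libraries), and their sum was 0 to 88.1 CPM in the Dlk1 cells of the stages. In those of the hormone libraries it was 0 to 265 CPM, against 8.5 to 16.7 CPM in the remaining fibroblasts, highest in placebo 1, where 5 of 30 Dlk1 cells lay in the Top2a-led cluster. In the stages Cdh19, a glial marker, and Cldn1 and Tenm2 of the perineurial list were higher, and Lox of the matrix-remodelling markers and Gdf10 and Fmo2 of the adipogenesis-regulatory markers were lower. In lactation Gdf10 and Fmo2 were not lower, at 200.4 and 180.4 CPM in Dlk1 cells against 65.2 and 112 CPM, and inside the Angptl1-led clusters neither passed (-0.11, adjusted p = 0.98, and -0.02, adjusted p = 1). The other adipogenesis-regulatory markers Clec11a (0.91 ± 0.31, adjusted p = 0.072) and F3 (0.68 ± 0.28, adjusted p = 0.18) and the matrix-remodelling marker Crabp1 (0.64 ± 0.33, adjusted p = 0.37) had positive differences that did not pass. Tendon markers summed to 0 to 38.1 CPM and cartilage markers to 0 to 17.4 CPM, and 1 of 6 dermal papilla markers, Enpp2, was higher in the stages (1.68 ± 0.21, adjusted p = 1.2e-12), with Corin, Sox2 and Lef1 at 0. In the remaining fibroblasts of the stages Wif1, Corin and Sox2 were at 0.11, 0.0761 and 0.0205 CPM on average too, so their zeros carry no weight. Of the mesothelial and keratinocyte markers 1 each was lower in the stages. With DESeq2 0 of the lobular, matrix-remodelling, adipogenesis-regulatory, mesothelial and keratinocyte markers were lower in the stages. By that tool 3 of the 4 Pappa2 fibroblast markers were higher there.

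Some genes were higher in the Dlk1 cells of the hormone libraries but did not pass in the stages. The following genes were chosen after their values were seen. Ccn3, a matricellular protein, was 563 and 687 CPM in the placebo libraries and 118 and 4.23 CPM in the MPA+E libraries in Dlk1 cells and 4.86 to 70.2 CPM in the remaining fibroblasts (3.24 ± 0.25, adjusted p = 3.9e-08), whereas in the stages it was -0.64 ± 0.50 (adjusted p = 0.62). Cthrc1, a secreted protein of collagen-remodelling fibroblasts, was 618 and 1153 CPM in the placebo libraries and 361 and 97.3 CPM in the MPA+E libraries (2.56 ± 0.34, adjusted p = 3.4e-05). H19 did not pass (1.30 ± 0.58, adjusted p = 0.26) and was 10 and 915 CPM in the placebo libraries and 19.7 and 59.2 CPM in the MPA+E libraries, so that placebo 2 stood apart, with an H19 UMI in 23 of its 43 Dlk1 cells (53.5%) and in 8.54% of its other fibroblasts. In placebo 2, 28 of the 43 Dlk1 cells lay in 1 cluster led by Cthrc1, Ccn3 and H19. Its 10 leading genes also held Stmn1, Hist1h1b and Pclaf, which were among the leading genes of Top2a-led clusters in other libraries. No Top2a-led cluster formed in placebo 2. There 4 of the 43 Dlk1 cells held a Top2a UMI (9.3%, against 0.84% of its other fibroblasts) and 1 an Mki67 UMI (2.33% against 0.472%). The difference of the effect between hormone and stage libraries was 3.88 ± 0.41 for Ccn3 (adjusted p = 1.1e-15) and 3.36 ± 0.39 for Cthrc1 (adjusted p = 1.7e-13). Hormone fibroblasts were deeper (medians of 10216 to 16827 UMIs against 3990 to 7293). Their Dlk1 cells were deeper still in placebo 1 (17571.5 against 14158), placebo 2 (23313 against 12475) and MPA+E 1 (20097.5 against 16827), and in MPA+E 2 25% of the Dlk1 cells were marked as likely doublets against 8.69% of its fibroblasts. The part of depth and doublets in these differences was not tested.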

How the data were processed

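Droplet single-cell RNA libraries of 13 sorted stromal samples were used as the unnormalised UMI counts that the authors deposited, made with Cell Ranger 6.1.2 per the submitters' processing notes, against mm10 (GRCm38), each as a matrix of 32285 genes by barcodes. The annotation release was not given in the sources used here. The members and gene lists were chosen with earlier results of these data known. Each barcode was filtered by the stated limits in Python 3.11.15. UMIs of Dlk1 cells and of the remaining fibroblasts were summed per library. CPM are these sums scaled by the usual factor to the total UMIs of the same cells.

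Sums were tested in R 4.3.3 with edgeR 4.0.16 (TMM scaling, filterByExpr, quasi-likelihood test, library as block, since both sums come from the same library), with DESeq2 1.42.0 as an alternative and Benjamini-Hochberg adjustment over all genes outside the 14 of the rule. The labels give 2 females per condition, so the unit of the tests was the library and not the animal. The fit shares variance estimates across genes, so a small p-value does not show that the libraries were alike for that gene. Igfbp5 (adjusted p = 2.3e-20 with edgeR) was at 0 against 2388 CPM in lactation and at 2028 against 2173 CPM in involution. Pregnancy, with 3 Dlk1 cells, did not reach the minimum of 10 cells and stayed out of the fit. With 1 library a stage, no test compares stages. The difference between hormone and stage libraries was tested as an interaction in 1 fit. Clustering in scanpy 1.11.5 used 1000 variable genes, 30 components, 20 neighbours and resolution 0.8, for each library alone. Scrublet marked the top 0.8% of barcodes per 1000 barcodes as likely doublets, and their removal was an alternative.

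Named genes outside the rule had an adjusted p under 0.05 and 1 direction in all stage libraries of the fit. They were the 15 with the largest positive difference and a mean of at least 20 CPM in Dlk1 cells, of 133 eligible, and the 8 with the largest negative difference and a mean of at least 50 CPM in the remaining fibroblasts, of 254. Of each list up to 4 called members with the largest differences were named. Other genes named (Cxcl14, Thbs4, Cilp, Spp1, Fndc1, Eng, Clec11a, F3, Crabp1, Lpl, Mmp3, Pdgfra, Meg3, Mirg, Rian, Rtl1, H19, Fst, Pparg, Enpp2, Col3a1, Ccn3 and Cthrc1) were chosen after their values were seen or for background. The fits were tested on simulated data made from these counts. Only genes with a mean of at least 20 CPM in the remaining fibroblasts were changed, and all counts were drawn with the median dispersion. The named higher genes other than Apod were at 0.481 to 9.01 CPM there, so the recovered shares do not describe them. Genes that vary more between libraries are not covered either. In the stage simulation (13042 genes) 100% of genes raised 4-fold and 26% of those raised 2-fold were recovered, 76% and 32% of those lowered as much, and 8 unchanged genes were called. In the hormone simulation (13749 genes) the shares were 100%, 78%, 100% and 82%, with 4 unchanged genes called. Alternatives changed the Dlk1 threshold, the second gene, depth, mitochondrial limit, doublets, gene filter, tool, block and libraries.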

Additional observations from a re-analysis of the deposited data

Results flagged for a closer look

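The difference between Dlk1 cells and remaining fibroblasts was not the same in hormone and stage libraries for 11 of the 23 named genes, tested as an interaction with edgeR (adjusted p under 0.05; 2.34% of all 13945 genes). As hormone minus stage, the log2 difference of the effect was -3.39 for Etv4, -1.99 for Alpl, -2.56 for Ces1d and -1.38 for Apod, so these were less raised in the hormone libraries. It was 3.52 for Akr1c18, 2.92 for Il1r2, 3.62 for Aldh1a3, 3.07 for Sema3c, 2.73 for Sbsn, 2.39 for Efhd1 and 1.45 for Pi16, so these were less lowered there. The Dlk1 cells also lay in different clusters, with 55.4% in Angptl1-led clusters in the stages and 28.8% in the hormone libraries, and 18.5% and 51.8% in clusters of no named kind. Pappa2-led clusters held 13% in the stages, and by the sorting used none formed in the hormone libraries. Of the 72 hormone Dlk1 cells in clusters of no named kind, 28 lay in 1 cluster of placebo 2. The named genes were chosen for large stage effects, and the part of that choice, of the cluster make-up and of depth in these differences was not tested.

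The same rule applied to the raGFP-Wnt1 libraries, which no comparison above used, took 48 of 8917 barcodes that passed as fibroblasts in tumour 1 (0.538%) and 183 of 4236 in tumour 2 (4.32%). The hyperplasia libraries gave 0.0827% and 0.0877%. In tumour 2 a second gene of the rule was found in 91.5% of fibroblasts without a Dlk1 UMI, so there the rule came close to Dlk1 alone. Thinned to 3000 UMIs the shares were 0.0171% and 0.0531% in the hyperplasia libraries and 0.0588% and 0.449% in the tumours, so that tumour 1 was near hyperplasia 2 and only tumour 2 stood apart.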

How the results depend on the processing

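Of the values of named genes under alternatives, 675 kept their direction and side of the threshold, 39 were weaker, 4 stronger and 2 reversed. The reversed ones were Etv4 in the hormone libraries, at -0.10 with DESeq2 and -0.85 without placebo 1, where it had not passed (-0.85 to 0.83 leaving out 1 library). The 627 stage genes became 282 with DESeq2 (64.5% of them higher, against 36.0%) and 203 inside the Angptl1-led clusters, and leaving out 1 library gave 352 (without puberty) to 542. The 642 hormone genes became 109 inside those clusters and 405 with the raGFP-Wnt1 libraries added, 443 with DESeq2 (57.3% higher, against 42.2%), and 513 to 765 leaving out 1 library. Without the replicate block that pairs both sums of a library, 148 and 114 genes were called. The puberty ratio was 4.09 with cells thinned to 2000 UMIs and 5.30 to 7.56 otherwise. The median of all genes shifted by -0.52 (stages) and -0.29 (hormone) with no filter on low counts, and in the stages by 0.24 with DESeq2, -0.19 without puberty, -0.11 with at least 3 Dlk1 UMIs and 0.10 with no second gene. The cause was not tested. Few Dlk1 cells and low UMI counts limit precision.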
